A study of Homo sapiens with 6 samples.

Results

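The levels of 8 genes of the inflammasome and of the cytosolic NOD-like receptors were examined in RNA-seq of MDA-MB-231 cells, a triple-negative human breast cancer line of mesenchymal character. They are NLRP1, NLRP2, NLRP3, NLRX1, NOD1, NOD2, PYCARD and CASP1, each taken by its symbol from a table of 26255 symbols. The members were chosen by the fall of NLRP2 between these groups of libraries, so the values of NLRP2 are given as a description and without a test, and the other 7 were taken as relatives by family or pathway. Both groups of cells carried a lentiviral short hairpin RNA and were selected with puromycin. shNT cells carried a control hairpin and shGPR81 cells a hairpin against GPR81, the lactate receptor encoded by HCAR1, with 3 libraries per group. The labels name neither the hairpin that the sequenced cells carried nor separate cultures behind the libraries. Hairpin and cell line cannot be told apart in this design, and p-values measure the spread between these libraries, which may be technical.

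NOD-like receptors are sensors in the cytosol with a nucleotide-binding NACHT domain and, in most members, leucine-rich repeats. NLRP3 and NLRP1 can assemble inflammasomes, in which the adaptor ASC, the product of PYCARD, joins a sensor to caspase-1, the product of CASP1, and caspase-1 then cleaves the precursors of interleukin-1β and interleukin-18 and the pore-forming protein gasdermin D. NOD1 and NOD2 bind fragments of bacterial peptidoglycan and signal to NF-κB through the kinase RIPK2, while NLRX1 is a mitochondrial member. NLRP2 has a pyrin domain, is known for roles in the oocyte and early embryo, and has been described as a modulator of NF-κB and caspase-1.

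The values are FPKM, fragments per kilobase of transcript, scaled to the mapped reads of a library, so that levels can be compared between genes of different length. The number of reads per library is not given with them. From the steps between low values the libraries had relative depths of 1 to 1.07, with the 3 shGPR81 libraries slightly deeper than the 3 shNT libraries. HCAR1 was at 0.968, 1.02 and 1.36 FPKM in shNT and at 0.978, 0.891 and 0.396 FPKM in shGPR81, so the groups overlapped and the check of the targeted gene did not pass the test (log2 fold change -0.57, SE 0.31, adjusted p = 0.38 from limma). The difference was -0.22 without shGPR81 replicate 3, the library with 16 reads of HCAR1 against 40 and 36 in the other shGPR81 libraries. By RT-qPCR and western blotting, which were not re-examined here, the paper reported reduced GPR81 in its knockdown cells. The line's defining markers VIM, CD44, AXL, CAV1 and EGFR were at 33.6 FPKM or more in every library, and ESR1, PGR and CDH1 were listed at 0, whereas GATA3 and EPCAM, which had been taken as near 0, were measured at up to 6.86 FPKM. Of 10 markers of myeloid cells, in which inflammasome genes are best known, 6 were listed at 0 in all libraries, among them SPI1, ITGAM and TYROBP. The summed level of the 10 was 3.18 to 5.52 FPKM in shNT and 2.62 to 3.41 FPKM in shGPR81. Most of it in shNT came from CD14, a coreceptor for lipopolysaccharide, which had a mean of 3.38 ± 1.05 FPKM (SD, n = 3) in shNT and 1.49 ± 0.312 FPKM in shGPR81 (adjusted p = 0.0562 from limma, and 0.00915 without shNT replicate 1). Its part in the results below was not tested.

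NLRP2 was the member in which the groups lay far apart. The gene lies on the plus strand of chromosome 19, from 55464498 to 55512510 in GRCh37. It was at 4.22, 3.44 and 3.99 FPKM in shNT and at 0.103, 0.0208 and 0.0623 FPKM in shGPR81. Every shNT library was far above every shGPR81 library, and the ratio of the means was 62.7-fold. The log2 fold change of FPKM + 0.1 was -4.65 (SE 0.23). It was -5.94 with an offset of 0.01 and -2.20 with an offset of 1, since the shGPR81 values are near or below 0.1 FPKM. Leaving out each library in turn kept it between -4.82 and -4.45. In shGPR81 the FPKM stood for 5, 1 and 3 reads, the smallest whole numbers in the ratio of the 3 values after correction for depth. In the same unit shNT had 192.06, 160.4 and 181.7, which are not whole numbers, so reads could not be assigned there. With these rounded, NLRP2 was 62.5-fold lower in shGPR81, with a 95% exact (Clopper-Pearson) interval of 32.7-fold to 137-fold that covers counting error only. This interval is a description and no test, since NLRP2 was chosen for its fall and the rounded shNT values are taken as reads. In bulk RNA, fewer cells with the transcript and less transcript per cell cannot be told apart.

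The 250 bases before the start of the NLRP2 transcript ENST00000448584.7, read from GRCh37 at chr19:55477492-55477741 on the plus strand, are printed for the member with the large difference. Those of PYCARD, at chr16:31214082-31214331 on the minus strand, are shown beside them because PYCARD is the member listed at 0 in all libraries. Both windows lie within the spans given for the genes, since other annotated transcripts start further upstream. Capitals mark CG dinucleotides, the letters CG, which read the same on both strands.

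NLRP2: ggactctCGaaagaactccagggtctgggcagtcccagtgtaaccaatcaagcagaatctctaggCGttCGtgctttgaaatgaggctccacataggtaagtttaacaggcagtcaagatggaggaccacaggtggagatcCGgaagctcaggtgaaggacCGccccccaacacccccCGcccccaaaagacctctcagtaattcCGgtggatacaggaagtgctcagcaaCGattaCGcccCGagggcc

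PYCARD: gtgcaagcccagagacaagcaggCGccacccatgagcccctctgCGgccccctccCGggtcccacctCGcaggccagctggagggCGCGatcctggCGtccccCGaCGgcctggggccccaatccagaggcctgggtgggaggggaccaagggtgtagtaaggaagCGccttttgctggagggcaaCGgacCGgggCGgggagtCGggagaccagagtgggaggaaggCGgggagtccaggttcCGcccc

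The NLRP2 window held 10 CG and that of PYCARD 16. Among 35116 windows of the same length before gene starts in RefSeq (GRCh38.p14), 52.2% held at least 10 CG, 41.0% held at least 16, and the median was 11. RefSeq lists a pair of start windows for NLRP2, with starts 1090 bases apart, whose 250 bases differ at 1 position, and both are present in GRCh37. NLRP7, the closest relative of NLRP2, overlaps it on the opposite strand, and of the 6816 words of 75 bases in NLRP2 transcripts, 250 (3.67%) also occur in NLRP7 transcripts. NLRP7 was listed at 0 in all 6 libraries.

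**Figure D1:**
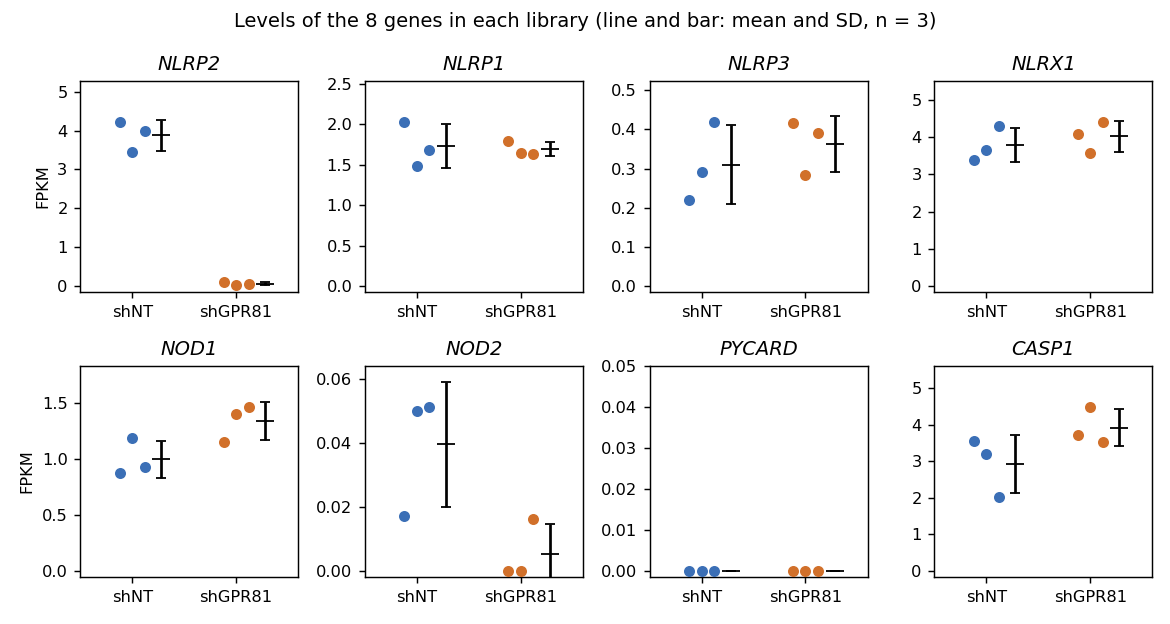
FPKM of the 8 genes (vertical axes, each from 0) in the 3 shNT and 3 shGPR81 libraries, with 1 point per library and the mean and SD beside them. NLRP2 was between 3.44 and 4.22 FPKM in shNT and at most 0.103 FPKM in shGPR81, while the groups of NLRP1, NLRP3, NLRX1, NOD1 and CASP1 overlapped and PYCARD was listed at 0 throughout.

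The order of the members differed between the groups by the place of NLRP2. In shNT, NLRP2 (3.88 ± 0.401 FPKM, SD, n = 3) and NLRX1 (3.78 ± 0.458 FPKM) had the highest mean levels and overlapped each other, followed by CASP1, NLRP1, NOD1, NLRP3, NOD2 and PYCARD. The ranges of NLRX1 and CASP1 overlapped, as did those of CASP1 and NLRP1, and each later pair was separated. In shGPR81 the order was NLRX1, CASP1, NLRP1, NOD1, NLRP3, NLRP2, NOD2 and PYCARD, in which NLRX1 and CASP1 overlapped, as did NOD2 and PYCARD. NLRP2 contributed 25.8% to 29.8% of the summed FPKM of the 8 members in shNT and 0.182% to 0.910% in shGPR81. The sum of the other 7 was 9.38 to 10.1 FPKM in shNT and 11.2 to 11.5 FPKM in shGPR81.

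Among the other 7 members, 5 reached 0.1 FPKM in at least 3 libraries and were tested, and 0 of the 5 passed an adjusted p under 0.05 with a fold change above 1.5 (limma, Benjamini-Hochberg adjustment over 14349 genes). Over all tested genes 2.54% passed, 1.59% lower and 0.955% higher in shGPR81. At an unadjusted p under 0.05 there was 1 of the 5, NOD1, where 19.5% of all tested genes were. None of the 5 had groups without overlap, which 25.6% of all tested genes had (12.7% lower and 12.9% higher in shGPR81).

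The NLRP sensors other than NLRP2 did not pass the test. NLRP1, which can form an inflammasome of its own and lies on chromosome 17 from 5402735 to 5522744, had 2.03, 1.49 and 1.68 FPKM in shNT and 1.79, 1.65 and 1.64 FPKM in shGPR81. The shGPR81 values lay within the range of shNT. Its log2 fold change was -0.02 (SE 0.14, 95% interval -0.36 to 0.31, adjusted p = 0.953 from limma), and the sign turned without shNT replicate 1. NLRP3, the sensor of many danger signals, lies on chromosome 1 from 247579458 to 247612410. It was at 0.219, 0.291 and 0.419 FPKM in shNT and at 0.416, 0.282 and 0.390 FPKM in shGPR81. The groups overlapped almost fully, with a log2 fold change of 0.19 (SE 0.26, interval -0.42 to 0.81, adjusted p = 0.761), and this interval leaves room for a change above 1.5-fold upwards. Of the words of 75 bases in NLRP3 transcripts, 60.7% also occur in transcripts of another annotated gene, ENSG00000289728, so the NLRP3 level may be uncertain. The annotation behind the FPKM is not given, and whether this sharing affected the level was not tested.

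NLRX1, the mitochondrial member, on chromosome 11 from 119037277 to 119054725, had 3.40, 3.66 and 4.29 FPKM in shNT and 4.09, 3.57 and 4.41 FPKM in shGPR81. The libraries of the groups were interleaved, and its interval was the narrowest of the 5, with a log2 fold change of 0.09 (SE 0.12, interval -0.20 to 0.38, adjusted p = 0.769 from limma).

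The peptidoglycan receptors were found at very different levels, NOD1 near 1 FPKM and NOD2 near 0. NOD1, on chromosome 7 from 30464143 to 30518400, had 0.879, 1.19 and 0.929 FPKM in shNT and 1.15, 1.41 and 1.47 FPKM in shGPR81, which stand for 52, 72 and 55 reads against 73, 88 and 92 reads. A single pair overlapped, shNT replicate 2 and shGPR81 replicate 1. The log2 fold change was 0.40 (SE 0.17, interval 0.0018 to 0.79, adjusted p = 0.255 from limma), and the p of an exact permutation test of both sides was 0.2, the smallest possible with 3 against 3 libraries being 0.1. NOD2, on chromosome 16 from 50727499 to 50766988, had 0.0171, 0.05004 and 0.0512 FPKM in shNT and 0, 0 and 0.0161 FPKM in shGPR81. These values stand for 1, 3 and 3 reads and for 0, 0 and 1 reads, too few to compare, and NOD2 was under the filter.

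The adaptor had no value in any library, and the caspase was among the higher members. PYCARD, on chromosome 16 from 31212807 to 31214771, was listed at 0 in each of the 6 libraries, while 10 of 10 housekeeping genes looked up in the table had values in every library, the lowest being 12.6 FPKM for TBP. CASP1, on chromosome 11 from 104896124 to 104905977, had 3.55, 3.20 and 2.02 FPKM in shNT and 3.72, 4.49 and 3.54 FPKM in shGPR81. The lowest shGPR81 value lay just under the highest shNT value. The log2 fold change was 0.44 (SE 0.21, interval -0.05 to 0.93, adjusted p = 0.306 from limma), and it fell to 0.20 with shNT replicate 3 left out.

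The genes around NLRP2 were compared next. The comparison took the 10 protein-coding genes with a row in the table that lie nearest on each side, within 216 kb before and 225 kb after the gene. Of these 20 genes, 10 were listed at 0 in all libraries, among them the killer cell receptor genes, NCR1 and NLRP7 before NLRP2 and SYT5 after it. In all, 8 were tested, all of them after NLRP2. Both thresholds were passed by 2.54% of all tested genes and by 0 of these 8 (limma). Their log2 fold changes ran from -0.12 for RDH13, a retinol dehydrogenase, to 1.38 for TNNI3, cardiac troponin I, with a median of 0.23. TNNI3 was at 0, 0.112 and 0 FPKM in shNT and at 0.321, 0.325 and 0.108 FPKM in shGPR81 (adjusted p = 0.146 from limma). These values stand in the ratio of 0, 1 and 0 reads against 3, 3 and 1 reads, so the TNNI3 difference may rest on very few reads. RDH13 averaged 9.33 FPKM in shNT against 8.60 FPKM in shGPR81, and its groups did not overlap. Those of TNNT1 did not either, with shGPR81 higher, where 25.6% of all tested genes had groups without overlap. The nearest neighbour after NLRP2, GP6, a collagen receptor of platelets, had a value in 1 library, shGPR81 replicate 1, of 0.0338 FPKM.

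**Figure D2:**
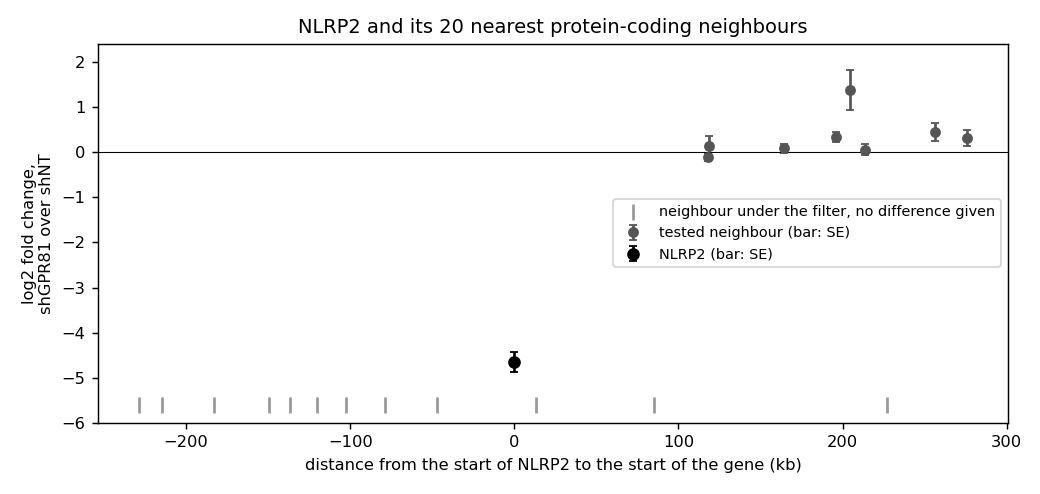
Log2 fold change of FPKM + 0.1 in shGPR81 over shNT (vertical axis, bars are SE) against the distance from the start of NLRP2 in kb (horizontal axis) for NLRP2 and its 20 nearest protein-coding neighbours. NLRP2 stands at -4.65 and the 8 tested neighbours between -0.12 and 1.38, and ticks at the bottom mark the 12 neighbours under the filter.

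The genes whose pattern lay nearest to that of NLRP2 included EEF1A2, DEFB1, TFF1 and MAL2. Likeness was the Euclidean distance over the 6 libraries between log2 values relative to the shNT mean, among 11661 tested genes that averaged 1 FPKM or more in shNT, and it ranged from 1.27 for EEF1A2 to 2.02 for MAL2 among these 4. These genes were chosen for their fall, so their values are a description. EEF1A2, a translation elongation factor encoded on chromosome 20, was at 15.6, 18.8 and 21.9 FPKM in shNT and at 0.903, 0.953 and 1.22 FPKM in shGPR81. None of the 4 had overlapping groups. TFF1, a secreted trefoil peptide, averaged 7.35 ± 1.23 FPKM (SD, n = 3) against 0.401 ± 0.141 FPKM, and MAL2, a membrane trafficking protein, 1.22 ± 0.0286 FPKM against 0.0174 ± 0.0151 FPKM. DEFB1, a defensin, had 1.11 to 2.27 FPKM in shNT and was listed at 0 in the 3 shGPR81 libraries. Its shNT values stood in the ratio of 2, 1 and 1 reads, the smallest whole numbers that fit, so DEFB1 may rest on very few reads. NLRP2 had the second lowest log2 difference of the 11661 genes. This rank is only a description, since NLRP2 was chosen for its fall and the 11661 genes by their shNT level.

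The rest of the pathway was described through 7 lists with 108 genes, all of which had a row in the table. Of these, 21 were listed at 0 in all libraries and 73 were tested. 2 genes, SERPINB9 and IL1R1, were lower in shGPR81 and 1, CARD16, was higher, which is 4.11% of the tested genes against 2.54% of all genes (limma). IL1R1 and NLRC3 reached the filter through 1 group only, and of the other 71 genes 2.82% were called. The lists were chosen with earlier results of these data known, so these shares are a description. The median difference of the 73 on the log2 scale, 0.02, was near that of all tested genes, 0.0081, and 28.8% of the 73 had groups without overlap, where 25.6% of all tested genes had.

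**Figure D3:**
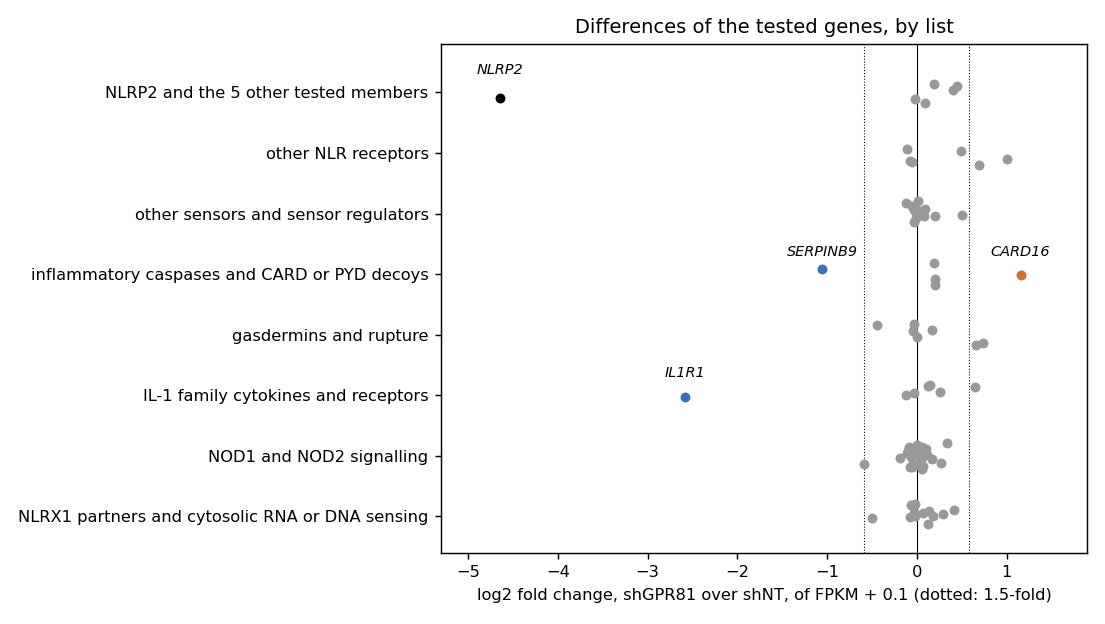
Log2 fold change of FPKM + 0.1 in shGPR81 over shNT (horizontal axis, dotted lines at 1.5-fold) of each tested gene, with 1 row per list. Blue points passed both thresholds and were lower, orange points passed and were higher, grey points did not pass, and NLRP2 is black because its fall chose the members. SERPINB9, IL1R1 and CARD16 passed, and the other points lay mostly between the dotted lines.

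The other NLR receptors were low or unmeasured. Of 16 genes, 5 were listed at 0 and 6 were tested (median log2 fold change 0.22). Both thresholds were passed by 2.54% of all tested genes and by 0 of these 6. The 3 with the highest levels were NLRC5 and CIITA, transcriptional activators of MHC class I and class II genes, and NAIP, a sensor of bacterial flagellin and secretion needles. They were at 2.37 ± 0.199, 1.62 ± 0.354 and 1.13 ± 0.480 FPKM (SD, n = 3) in shNT and at 2.19 ± 0.218, 1.54 ± 0.157 and 1.56 ± 0.376 FPKM in shGPR81. Much of NAIP is shared with its pseudogenes, as 40.6% of its words of 75 bases occur in other genes. NLRC4, the partner of NAIP, is named after its values were seen. It was at 0.124, 0.0584 and 0.0596 FPKM in shNT and at 0.173, 0.404 and 0.233 FPKM in shGPR81. In shNT only replicate 1 reached the 0.1 FPKM of the filter, so NLRC4 was tested mainly through its shGPR81 values. Its groups did not overlap, as in 25.6% of all tested genes, and the adjusted p was 0.149 (log2 fold change 1.01, SE 0.33, limma). The size was 1.62 with an offset of 0.01 and 0.23 with an offset of 1.

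Among 18 genes for other sensors and their regulators, 12 were tested (median -0.01) and 0 passed, where 2.54% of all tested genes passed. HSP90AB1, a chaperone of NLR proteins, CTSB, a lysosomal protease, and TXNIP, a thioredoxin-binding partner described for NLRP3, had the highest levels and log2 fold changes of -0.01, -0.05 and 0.08. IFI16, a nuclear DNA sensor named after its values were seen, was at 45.3 ± 2.10 FPKM in shNT and 45.1 ± 0.530 FPKM in shGPR81 (SD, n = 3). AIM2, the cytosolic DNA sensor that forms an inflammasome through ASC and is named here after its values were seen, was at 3.35, 3.16 and 2.21 FPKM in shNT and at 3.87, 4.46 and 3.97 FPKM in shGPR81, which stand for 59, 57 and 39 reads against 73, 83 and 74 reads. The groups did not overlap, as in 25.6% of all tested genes, and the adjusted p was 0.142 (log2 fold change 0.50, SE 0.16, limma). The difference was 0.32 without shNT replicate 3.

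Among the inflammatory caspases and decoys, 1 gene was lower and 1 higher of 5 tested in a list of 11, with a median log2 fold change of 0.21. That is 40.0% of a very short list, where 2.54% of all tested genes passed. CARD16, a protein made of a caspase recruitment domain close to that of caspase-1 and described as its inhibitor, lies beside CASP1 on chromosome 11 from 104912053 to 104972158. It was at 5.67, 4.66 and 5.43 FPKM in shNT and at 11.49, 11.97 and 11.87 FPKM in shGPR81. The groups lay well apart, by 1.15 ± 0.09 (SE) on the log2 scale (limma, adjusted p = 0.00101), and it passed in all 6 fits that left out 1 library. Of the 1665 words of 75 bases in CARD16 transcripts, 102 (6.13%) also occur in CASP1 transcripts, so a part of the reads may be split between these neighbours, and the CASP1 difference above has the same sign.

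SERPINB9, an inhibitor of granzyme B also described as an inhibitor of caspase-1, lies on chromosome 6 from 2887504 to 2903543. It was at 5.13, 4.92 and 4.39 FPKM in shNT and at 2.25, 2.21 and 2.33 FPKM in shGPR81, which stand for 279, 274 and 239 reads against 131, 127 and 134 reads. Every shGPR81 value was well under the lowest shNT value (log2 fold change -1.05, SE 0.10, adjusted p = 0.00176 from limma), and it passed in all 6 fits that left out 1 library. CASP4, a sensor of intracellular lipopolysaccharide, CASP8 and FADD, the apical caspase of death receptors and its adaptor, were the most abundant of the list. Their log2 fold changes were 0.21, 0.19 and 0.21 and did not pass. The groups of each did not overlap, which held for 25.6% of all tested genes. CASP5, CASP12, CARD17, CARD18, PYDC1 and PYDC2 were listed at 0.

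**Figure D4:**
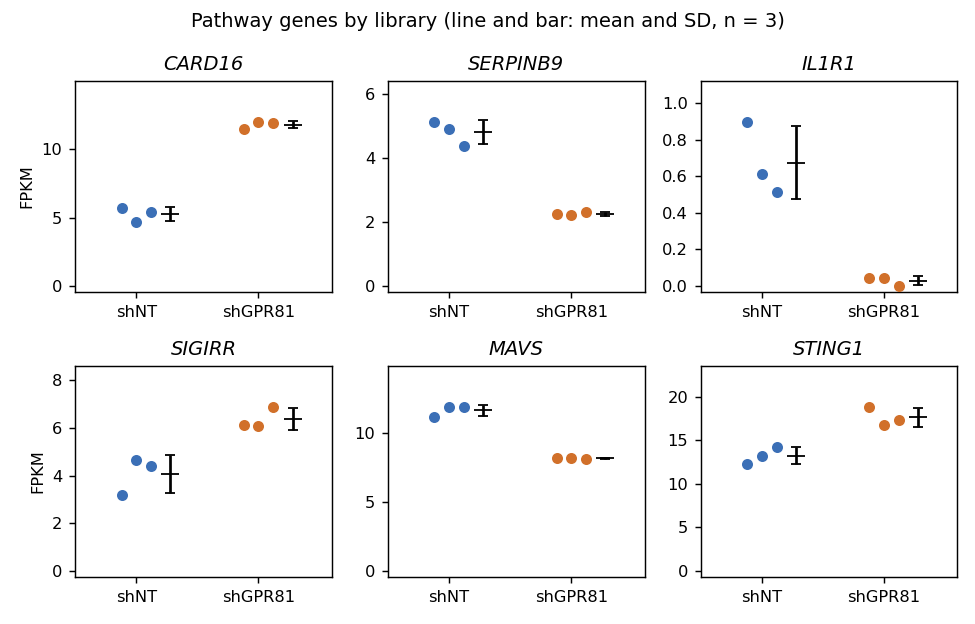
FPKM (vertical axes, each from 0) of CARD16, SERPINB9, IL1R1, SIGIRR, MAVS and STING1 in the 3 shNT and 3 shGPR81 libraries, with 1 point per library and the mean and SD beside them. The groups of all 6 genes do not overlap, and the first 3 passed both thresholds. The 6 were chosen by their test results or after their values were seen, and 25.6% of all tested genes have groups without overlap.

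The gasdermins did not pass the test. Of the gasdermins and the rupture proteins 7 of 8 were tested (median 0.00) and 0 passed, where 2.54% of all tested genes passed. NINJ1, which drives membrane rupture, GSDME, a gasdermin cleaved by caspase-3, and GSDMD, the gasdermin cleaved by caspase-1, had the highest levels. GSDMD was at 23.5, 26.3 and 30.2 FPKM in shNT and at 27.5, 24.4 and 26.1 FPKM in shGPR81, with the shGPR81 values inside the range of shNT (log2 fold change -0.03, SE 0.10, interval -0.26 to 0.19, adjusted p = 0.906 from limma). GSDME averaged 32.0 ± 0.602 FPKM in shNT against 36.0 ± 0.384 FPKM in shGPR81 (SD, n = 3, adjusted p = 0.0911). The largest difference was that of GSDMC, named after its values were seen (log2 fold change 0.74, SE 0.26, adjusted p = 0.177 from limma). Its groups did not overlap, as in 25.6% of all tested genes, and 3 of the 7 tested genes were below 0.

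In the IL-1 family 7 of 18 genes were tested, 1 was lower and 0 were higher (median 0.13). The 1 call, IL1R1, is 14.3% of the 7, where 2.54% of all tested genes passed. That share rests on a gene tested through 1 group only, and none of the other tested genes of the list passed. IL1R1, the signalling receptor for interleukin-1, lies on chromosome 2 from 102681004 to 102796334. It was at 0.897, 0.615 and 0.512 FPKM in shNT and at 0.0426, 0.0431 and 0 FPKM in shGPR81. It was near 0 in every shGPR81 library and passed both thresholds (log2 fold change -2.58, SE 0.30, adjusted p = 0.00376 from limma). IL1R1 reached the filter of 0.1 FPKM through its shNT values alone, so a gene with its levels had to differ to be tested. The size depended on the offset and lay between -4.46 and -0.70 over the alternatives. Its coreceptor IL1RAP was at 6.06 ± 0.728 FPKM in shNT and 6.69 ± 0.523 FPKM in shGPR81 (SD, n = 3, adjusted p = 0.541). SIGIRR, a receptor of the family that dampens signalling, was at 3.16, 4.65 and 4.39 FPKM in shNT and at 6.13, 6.07 and 6.89 FPKM in shGPR81, and it was just outside the threshold (log2 fold change 0.65, SE 0.15, adjusted p = 0.0545). With a filter of 1 FPKM the adjusted p was 0.0473.

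The cytokines themselves were measured at contrasting levels. IL18 was at 34.5, 37.8 and 32.8 FPKM in shNT and at 39.86, 36.96 and 37.73 FPKM in shGPR81 (log2 fold change 0.13, SE 0.07, adjusted p = 0.368 from limma). IL1B was at 1.52, 0.877 and 0.673 FPKM in shNT and at 0.839, 0.956 and 1.06 FPKM in shGPR81, which stand for 27, 16 and 12 reads against 16, 18 and 20 reads, with the shGPR81 values inside the range of shNT. IL1A was at or under 0.160 FPKM in every library, and IL33 was listed at 0.

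In the list for NOD1 and NOD2 signalling, 24 of 25 genes were tested (median 0.02). Both thresholds were passed by 2.54% of all tested genes and by 0 of these 24. RIPK2, the kinase that binds both receptors, is named after its values were seen and was at 7.96, 7.17 and 7.43 FPKM in shNT and at 6.92, 8.07 and 8.21 FPKM in shGPR81, which stand for 261, 241 and 244 reads against 243, 280 and 285 reads. The groups overlapped, differing by 0.04 ± 0.09 (SE) on the log2 scale (limma, adjusted p = 0.874). RELA, an NF-κB subunit, CHUK, a kinase of its inhibitor, and TAB2, an adaptor of the kinase TAK1, had the highest levels and log2 fold changes of 0.05, -0.11 and 0.00.

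Of 12 genes for partners of NLRX1 and for sensing of RNA and DNA, 12 were tested (median 0.02). Both thresholds were passed by 2.54% of all tested genes and by 0 of these 12. TUFM, a mitochondrial elongation factor that binds NLRX1, UQCRC2 and FAF1 had the highest levels and log2 fold changes of -0.08, -0.06 and -0.02. MAVS and STING1, named after their values were seen, had an adjusted p under 0.05 without a fold change above 1.5. An adjusted p under 0.05 at any fold change was reached by 5 of the 73 tested list genes and by 5.13% of all tested genes. MAVS, the mitochondrial adaptor of RNA sensors, was at 11.2, 11.9 and 11.9 FPKM in shNT and at 8.20, 8.20 and 8.14 FPKM in shGPR81 (log2 fold change -0.51, SE 0.06, adjusted p = 0.00472 from limma). MAVS lies on chromosome 20, where the median log2 fold change was -0.40 over 253 genes averaging 5 FPKM or more and 243 of them were below 0, and the part of that shift in the MAVS value was not tested. The other gene of the lists on chromosome 20, the nucleic acid sensor gene ZBP1, was listed at 0. None of the 8 members lies on chromosome 20, and the median of chromosome 19, which holds NLRP2, was 0.04 over 504 genes. STING1, the adaptor of cytosolic DNA sensing, was at 12.3, 13.2 and 14.3 FPKM in shNT and at 18.9, 16.8 and 17.3 FPKM in shGPR81 (log2 fold change 0.41, SE 0.08, adjusted p = 0.0269), and its adjusted p was 0.0325 to 0.118 when single libraries were left out, 0.0605 with a replicate block and 0.0559 with an untrended variance.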

How the data were processed

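RNA-seq values of 6 libraries, 3 shNT and 3 shGPR81, were used as the deposited table of FPKM per gene symbol. According to the submitters' processing notes the authors used TopHat2 2.0.13, Bowtie2 2.2.3, SAMtools 0.1.19 and Cuffnorm 2.2.1 to make the FPKM. The labels name the mouse build mm10 and the study's methods hg19, and human coordinates are given here in GRCh37 with GENCODE release 44 lifted to it. The annotation behind the FPKM is not given in the sources used here. The study's methods describe tests on read counts, which were not used here.

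Genes at or above 0.1 FPKM in at least 3 libraries were kept and log2(FPKM + 0.1) was fitted with limma 3.58.1 in R 4.3.3 (2 groups, trended empirical Bayes), with Benjamini-Hochberg adjustment over all 14349 genes. Calls required a fold change of more than 1.5 besides an adjusted p below 0.05. Fold changes on this scale understate the change of low genes. The fit was checked on simulated data. Where the values of a gene were whole multiples of a common step after correction for relative depth (to 0.0001 of the value, or to 0.005 for at most 10 reads), the multiples are given as reads. Intervals on them cover counting error only. Reads were recovered for some genes only, so no count test was run, and absolute depth is unknown.

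The 8 members and the 7 lists were chosen with earlier results of these data known. Genes named were the members, HCAR1, from each list every called gene and the 3 tested genes with the highest mean FPKM, the neighbours of NLRP2 and the 5 genes nearest to it in pattern (1 of them is not reported here), and genes just inside or outside the thresholds. Others are marked as named after their values were seen. Replicates were those of the labels. The alternatives were other offsets, filters, scalings and variance estimates, a replicate block, and leaving out each library. RefSeq start windows were counted for CG in GRCh38.p14, and none of its coordinates was used.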

Additional observations from a re-analysis of the deposited data

How the results depend on the processing

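Across 14 alternatives, 0 of the tested members other than NLRP2 were called. CARD16, SERPINB9 and IL1R1 were the list genes called in 13 of them, and with a filter of 1 FPKM they were CARD16, SERPINB9 and SIGIRR, with 4 members tested. The NLRP2 difference kept its sign. That of NLRP1 turned, to 0.0892 without shNT replicate 1, within -0.121 to 0.0892 over the fits that left out 1 library. The number of genes called over the whole table moved more. With an offset of 1 FPKM, 142 genes were lower and 75 higher in shGPR81, against 228 and 137, since this offset shrinks the fold changes of low genes. Leaving out 1 library gave 121 to 256 lower and 65 to 152 higher. The lower count was 121 without shNT replicate 2, 133 without shGPR81 replicate 1 and 135 without shGPR81 replicate 2. The higher count was 65, 66 and 85 without shGPR81 replicates 1, 2 and 3 and 81 without shNT replicate 2. These fits have fewer samples. Whether the replicate numbers pair the libraries could not be settled from their correlations. Same-numbered libraries correlated at 0.120, 0.0223 and 0.00577 in their deviations from the group means, and not every library correlated best with its own number. A fit with the replicate number as a block called 197 genes lower and 115 higher. NLRP3 and IL1R1 could not be fitted with a filter of 1 FPKM. CD14 passed both thresholds with quantile normalization (adjusted p = 0.0494 from limma) or without shNT replicate 1. Low values limit what can be said of NOD2, and PYCARD has no value to compare.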
